A study of Arabidopsis thaliana with 9 samples.

Results

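ICL and SDP1, genes of seed oil mobilisation, were read by 1 probe set each in seedlings of 3 Arabidopsis thaliana lines, iae1, iae2 and B1798. They were taken by name from the probe annotation, which gives ICL (AT3G21720) and SDP1 (AT5G04040) a probe set of their own, so that 2 of the 13286 annotated genes on the array are described. Each line had 3 Affymetrix ATH1 arrays, 9 in all. The lines share the ecotype Ler (Landsberg erecta), growth with 1% sucrose and the sampled tissue, which was the crown, hypocotyl, cotyledons and apical meristem bud at growth stage 1.0. On the scale in common use that is the stage of fully opened cotyledons. The name iae stands for increased Ac excision, a trait in which the maize element Ac leaves its site in the plant genome more often, and the series title asks for the genetic basis of these phenotypes. The labels give no allele for them and no description of B1798, which stands as the reference because it lacks an iae name. The series text gives 30 pooled plants without naming the unit pooled, and nothing says that replicates were separate cultures, so the p-values measure a spread between arrays that may be technical.

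An Arabidopsis seed stores triacylglycerol in oil bodies and uses it to feed the seedling until photosynthesis takes over. SDP1 is the lipase that starts the breakdown of stored oil at the oil body surface. The fatty acids released are taken into the peroxisome and shortened to acetyl-CoA by beta-oxidation, and ICL, isocitrate lyase, is an enzyme particular to the glyoxylate cycle, which turns that acetyl-CoA into precursors for sugar synthesis. ICL transcript is known to rise after germination and to decline as a seedling turns green, and sugar is known to hold it down. SDP1 transcript is known to build up already in the maturing seed.

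ICL was highest in iae1, intermediate in iae2 and lowest in B1798. Its signal, a linear intensity scaled alike on all arrays, was 69.0, 67.1 and 55.6 on the iae1 arrays, 44.0, 34.2 and 39.7 on the iae2 arrays, and 10.9, 25.6 and 6.7 on the B1798 arrays. The 3 lines did not overlap at any step of this order. The mean was 63.9 ± 7.25 in iae1, 39.3 ± 4.91 in iae2 and 14.4 ± 9.92 in B1798 (SD, n = 3 each).

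SDP1 ran the other way at its top end, with the highest signals in B1798. Its signal was 113.6, 135.8 and 109.7 on the iae1 arrays, 118.3, 103.3 and 85.8 on the iae2 arrays, and 141.4, 149.1 and 131.5 on the B1798 arrays. The iae2 arrays all lay below the B1798 arrays, while iae1 overlapped with both other lines. The mean was 120 ± 14.1 in iae1, 102 ± 16.3 in iae2 and 141 ± 8.82 in B1798 (SD, n = 3 each).

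**Figure D1:**
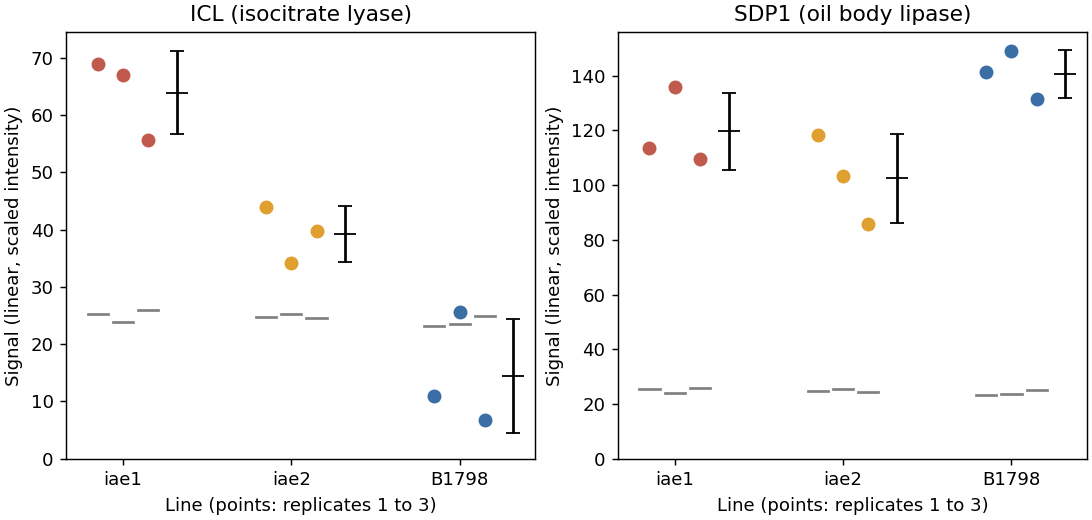
Signal (linear scaled intensity) of ICL and SDP1 on each of the 9 arrays, with the points of a line in the order of replicates 1 to 3, the mean ± SD in black and the 40th percentile of each array as a grey dash. ICL lies between 55.6 and 69.0 in iae1, between 34.2 and 44.0 in iae2 and between 6.7 and 25.6 in B1798, where 2 of 3 points fall under the dash, and SDP1 lies far above the dash on all arrays.

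In iae1 against B1798, ICL rose and SDP1 did not pass the test. Tests were run with limma on log2(signal + 16) over 14404 probe sets, and a gene was called at a Benjamini-Hochberg adjusted p below 0.05. ICL had a log2 fold change of 1.44 ± 0.18 (SE, 95% interval 1.06 to 1.82, limma adjusted p = 0.000114), the 9th largest rise among all tested probe sets. SDP1 had a log2 fold change of -0.21 ± 0.11 (interval -0.44 to 0.02, limma adjusted p = 0.289), and its arrays overlapped. One of the 2 genes was thus called, where 7.21% of all tested probe sets were, with 3.8% called higher. ICL was also the one whose arrays did not overlap, as held for 24.7% of all tested probe sets.

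In iae2 against B1798, ICL rose and SDP1 fell. ICL had a log2 fold change of 0.91 ± 0.18 (SE, interval 0.53 to 1.29, limma adjusted p = 0.00214), the 177th largest rise. SDP1 had a log2 fold change of -0.41 ± 0.11 (interval -0.64 to -0.18, limma adjusted p = 0.0158), the 652nd largest fall among all tested probe sets. Both genes were called, where 17.8% of all tested probe sets were, with 9.77% called higher and 7.99% lower. Neither gene had any overlap between the iae2 and B1798 arrays, against 33.3% of all tested probe sets. The comparisons of iae1 and iae2 use the same B1798 arrays and are not independent of each other.

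The test of iae1 against iae2 asks whether the lines differ from each other. ICL was higher in iae1 by a log2 fold change of 0.53 ± 0.18 (SE, interval 0.15 to 0.91, limma adjusted p = 0.0494), at the edge of the threshold. This call did not survive leaving out any single iae1 or iae2 array, with limma adjusted p-values of 0.0575 to 0.16 over those 6 fits. SDP1 differed by 0.20 ± 0.11 (interval -0.03 to 0.43, limma adjusted p = 0.233). One of the 2 genes was called, where 19.6% of all tested probe sets were, and the arrays did not overlap for ICL alone of the 2, against 35.8% of all tested. The order iae1 above iae2 above B1798 with no overlap at either step was found for 83 of the 14404 probe sets, and 27 of the 14404 had all 3 differences called in that order.

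**Figure D2:**
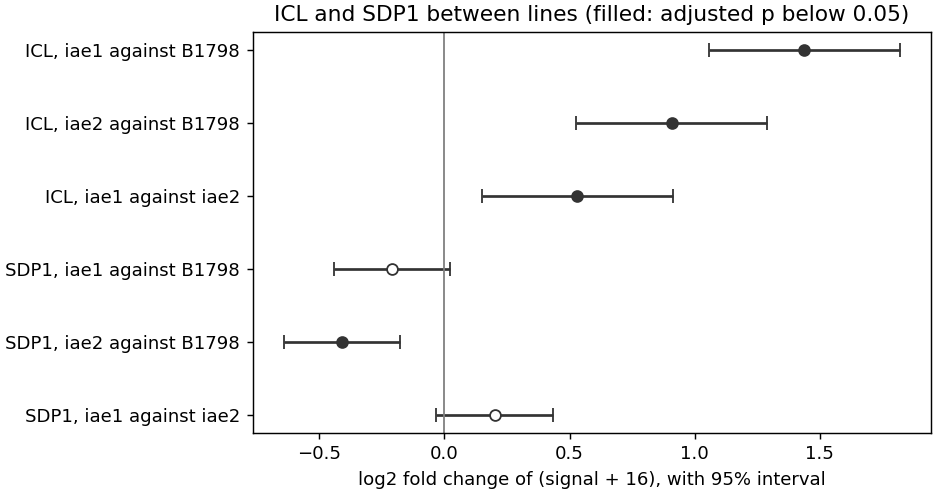
The log2 fold change of (signal + 16) for ICL and SDP1 in each comparison of lines, the first line named over the second, with 95% intervals from limma and filled points for adjusted p below 0.05. ICL lies at 1.44, 0.91 and 0.53, all filled, and of the SDP1 points the one for iae2 against B1798 at -0.41 is filled.

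The test scale matters for ICL because its B1798 signals were dim. As a ratio of mean signals, ICL was 4.44-fold higher in iae1 and 2.73-fold higher in iae2 than in B1798, or 2.15 and 1.45 in log2, while 16 added to each value shrinks these to 1.44 and 0.91. These ratios depend on B1798 replicate 2. Without it the B1798 mean was 8.8 and the ratio 7.26 in iae1 and 4.47 in iae2, and without either other B1798 array it was 3.5 or 3.96 in iae1 and 2.15 or 2.43 in iae2, an alternative chosen after seeing the data. For SDP1, which was brighter, the ratio of means was 0.851 in iae1 and 0.728 in iae2 against B1798, or -0.23 and -0.46 in log2. With 4 added in place of 16, ICL changed by 2.01 in iae1 and 1.36 in iae2 on the log2 scale, and with 64 added by 0.71 and 0.40, all still called. No detection call accompanied the values, so whether the dimmest B1798 signals stand above background was not tested.

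By rank on its own array, ICL lay at the 59.4th to 65.3rd percentile of all probe sets in iae1, at the 47.4th to 53.7th in iae2 and at the 17.7th to 42nd in B1798. A probe set was tested if it reached the 40th percentile of its array on at least 3 arrays. ICL did so on 3 of 3 iae1 arrays, 3 of 3 iae2 arrays and 1 of 3 B1798 arrays, so it entered the tests through the lines in which it is high. With no filter ICL kept the same fold changes and was called in iae1 (limma adjusted p = 0.0039) and in iae2 (limma adjusted p = 0.0179) against B1798, while the difference between iae1 and iae2 was not called (limma adjusted p = 0.139). SDP1 lay at the 75.2nd to 79.3rd percentile in iae1, the 70.1st to 76.4th in iae2 and the 78.9th to 81st in B1798, and reached the level on all 9 arrays.

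ICL varied more between arrays of a line than most genes did. Its residual SD on the log2 scale was 0.282, at the 96.1st percentile of the tested probe sets, whose median was 0.132. The B1798 arrays carried this spread, with an SD of 0.451 in log2, against 0.134 in iae1 and 0.129 in iae2. B1798 replicate 2, at 25.6, was the array closest to the iae lines, and without it the ICL fold change was 1.69 in iae1 and 1.16 in iae2. SDP1 had a residual SD of 0.151, at the 62.4th percentile. Its fall in iae2 was not called without iae2 replicate 3, the array with its lowest signal (log2 fold change -0.31, limma adjusted p = 0.0815), or without B1798 replicate 2, the array with its highest (-0.37, limma adjusted p = 0.0645).

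**Figure D3:**
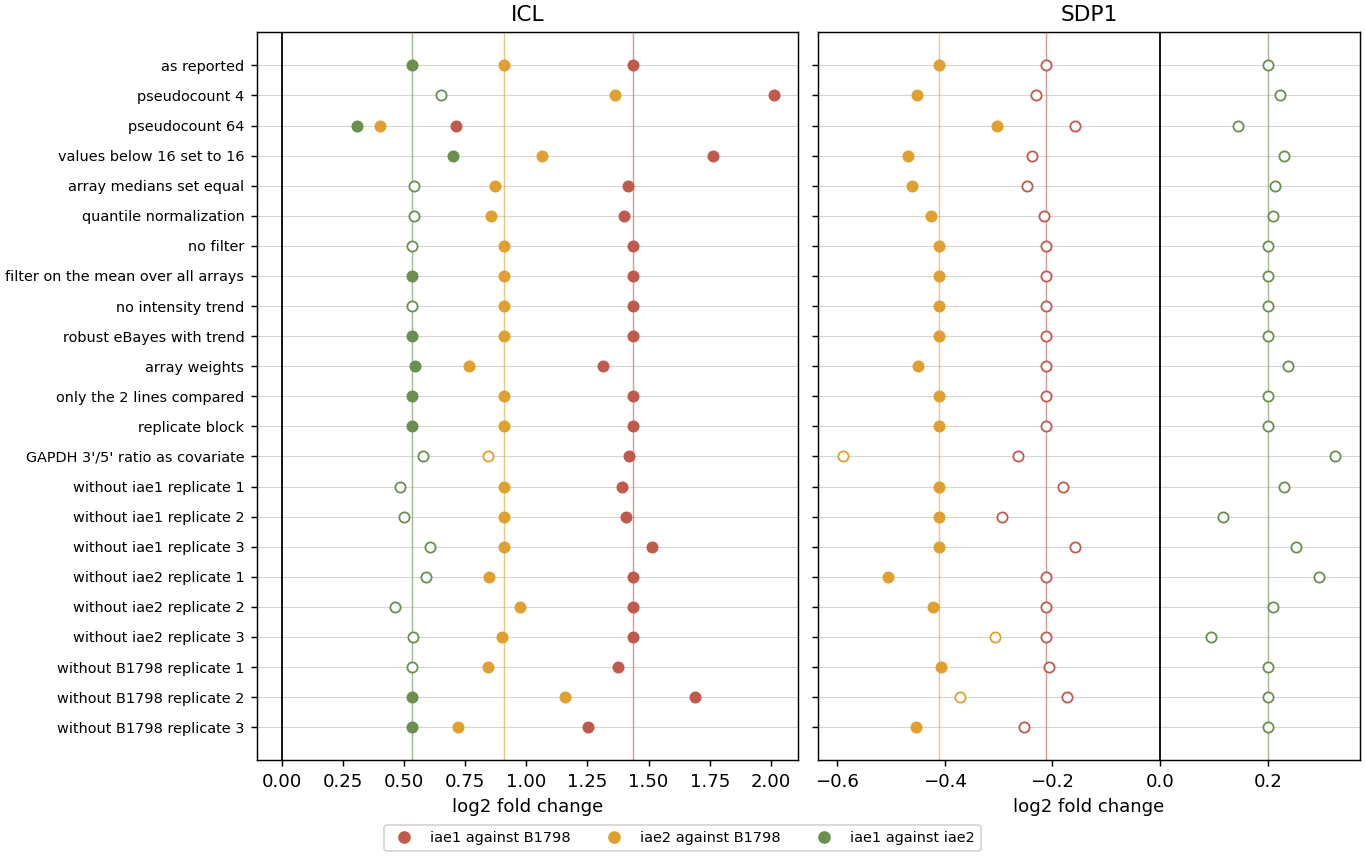
The log2 fold change of ICL and SDP1 in each comparison of lines as reported and under 22 alternative settings, with filled points for a limma adjusted p below 0.05 and thin vertical lines at the reported values. ICL in iae1 against B1798 is filled throughout, at 0.71 to 2.01, ICL in iae1 against iae2 turns open under 13 of the 22, and no point crosses 0.

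With 3 arrays against 3, the exact two-sided permutation test of one gene cannot go below p = 0.1. ICL reached that floor in all 3 comparisons and SDP1 in iae2 against B1798. For SDP1 the exact two-sided p was 0.2 in iae1 against B1798 and 0.3 in iae1 against iae2. In these mixed tissues, fewer cells that express a gene and less transcript per cell cannot be told apart.

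Beside these genes, iae2 stood apart in the GAPDH 3'/5' ratio, a reading of RNA quality, and in the leaf and root marker sums. In these iae1 and B1798 overlapped. The GAPDH 3'/5' signal ratio was 2.42 ± 0.0875 in iae1, 1.86 ± 0.126 in iae2 and 2.73 ± 0.422 in B1798 (SD, n = 3 each), with every iae2 array below every B1798 array. With its log2 as a covariate the ICL rise in iae1 was 1.42 ± 0.21 (SE, limma adjusted p = 0.00122). In iae2 neither gene was called under it, at 0.84 ± 0.39 for ICL (limma adjusted p = 0.313) and -0.59 ± 0.23 for SDP1 (limma adjusted p = 0.224). The SE without the covariate was 0.18 for ICL and 0.11 for SDP1. As the ratio separates iae2 from B1798, line and covariate are confounded in that comparison. The actin 3'/5' ratio was 2.3 ± 0.154 in iae1, 1.99 ± 0.271 in iae2 and 2.64 ± 0.175 in B1798 (SD, n = 3 each). In it iae1 (2.149 to 2.456) barely overlapped with B1798 (2.454 to 2.801), and its part in the ICL values was not tested. The 25S rRNA signal was 4415 to 5147 in iae1, 1666 to 3528 in iae2 and 3246 to 4068 in B1798, so iae1 lay above both other lines in it, and its part in the ICL values was not tested. Of the cotyledon and leaf markers 3 of 6 had a probe set named here, and their summed signal was 5750 to 6571 in iae1, 7083 to 7672 in iae2 and 5752 to 6530 in B1798. The 3 root markers summed to 3972 to 4209 in iae1, 3325 to 3684 in iae2 and 4008 to 4471 in B1798, most of it from PYK10, a beta-glucosidase of root and hypocotyl. LAS, the 1 of 3 meristem markers with a probe set named here, was dim (28.9 to 42.6 over the 9 arrays). Of the 10 embryo and seed markers and the 4 flower markers, 0 had a probe set named here, so they could not be read. Singly, LHCB4.2, an antenna protein gene, rose in iae2 (0.59, limma adjusted p = 0.000188), PYK10 fell in iae2 (-0.33, limma adjusted p = 0.00898) and the root peroxidase gene AT5G17820 rose in iae1 (0.51, limma adjusted p = 0.0202). The PYK10 change in iae2 was -0.12 after quantile normalization (limma adjusted p = 0.182) and -0.13 with the GAPDH covariate (limma adjusted p = 0.704), called under neither. The AT5G17820 rise lost its call when replicate 1 or replicate 2 of iae1, or replicate 2 or replicate 3 of B1798, was left out (limma adjusted p = 0.0626 to 0.0896), and also with no filter or with the GAPDH covariate. RCA, PSBY, EXPA7 and LAS passed in neither iae line against B1798. In iae2 the root markers EXPA7 (0.31, limma adjusted p = 0.135) and AT5G17820 (0.34, limma adjusted p = 0.0695) had the opposite sign to PYK10 and were not called. The lower root sum in iae2 thus came from PYK10 alone. The higher leaf sum in iae2 came mostly from LHCB4.2, with a mean of 2679 in iae2 and 1773 in B1798. RCA was at 2695 and 2679, and PSBY at 1931 and 1703. Whether these marker differences reflect tissue make-up, and their part in the ICL and SDP1 values, was not tested.

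Around ICL and SDP1, 56 loci of oil use were listed by role, of which 13 had a probe set named here and 11 were tested. Apart from ICL and SDP1 these were 9 genes, and 0 of 9 passed the limma test in iae1, with 1 of 9, PPDK, passing in iae2, where 7.21% and 17.8% of all tested probe sets were called in iae1 and iae2. At an unadjusted limma p below 0.05 it was 2 of 9 in each line, against 21.3% of all tested probe sets in iae1 and 30.2% in iae2. With so few genes nothing more is read from these counts. Their median log2 fold change was -0.06 in iae1 and -0.03 in iae2, while the median of all 14404 tested probe sets was 0.01 and 0.00. ICL stood for the glyoxylate cycle alone, as 9 of the 10 loci of that list, malate synthase (MLS) included, had no probe set named here. The 7 loci for import into the peroxisome and activation of fatty acids also had none.

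Of the 3 tested genes in the lipolysis list, 1 was called in iae2 against B1798, SDP1, beside 17.8% of all tested probe sets. In iae1 against B1798 it was 0 of 3, beside 7.21%. The log2 fold change of AT4G24160 was 0.00 in iae1 and -0.03 in iae2, and that of AT3G14360 was -0.04 and -0.03, with limma adjusted p-values between 0.85 and 0.986. SDP1-LIKE, the closest relative of SDP1, was under the filter, with signals of 4.0 to 10.9 in iae1, 3.2 to 8.9 in iae2 and 3.1 to 6.4 in B1798. These ranges overlapped, and no array reached the level needed for the test.

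AIM1, a multifunctional protein of beta-oxidation, was the tested 1 of 18 beta-oxidation loci. Its signal was 410 ± 15.8 in iae1, 444 ± 65.6 in iae2 and 429 ± 29.7 in B1798, and it did not pass in iae1 (-0.06, limma adjusted p = 0.767) or iae2 (0.04, limma adjusted p = 0.83). The 95% interval was -0.26 to 0.14 in iae1 and -0.16 to 0.24 in iae2, both short of the ICL interval in the same line.

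PPDK, pyruvate orthophosphate dikinase, makes phosphoenolpyruvate from pyruvate and is the tested 1 of 4 gluconeogenesis loci. Its signal was 551.4, 580.9 and 562.0 on the iae1 arrays, 337.0, 313.0 and 331.7 on the iae2 arrays, and 548.4, 504 and 438.0 on the B1798 arrays. All iae2 arrays lay below those of both other lines, and all iae1 arrays lay above those of B1798 by a narrow margin. PPDK fell in iae2 against B1798 (log2 fold change -0.57 ± 0.08, SE, limma adjusted p = 0.000155) and was higher in iae1 than in iae2 (0.76 ± 0.08, limma adjusted p = 9.56e-06). It did not pass in iae1 against B1798 (0.19, limma adjusted p = 0.211). ICL and PPDK thus had opposite signs in iae2 against B1798. With the GAPDH ratio as a covariate the PPDK change in iae2 was -0.87 (limma adjusted p = 0.00569).

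Of the oil body and lipid droplet proteins 5 of 13 loci were tested and 0 of 5 passed the limma test in either iae line, beside the same 7.21% in iae1 and 17.8% in iae2 of all tested. At an unadjusted p below 0.05 it was 1 of 5 in each, beside 21.3% and 30.2%. AT1G67360 came closest in iae2, with a signal of 171 ± 23.1 in iae1, 146 ± 4.65 in iae2 and 179 ± 8.17 in B1798 (log2 fold change -0.27 in iae2, limma adjusted p = 0.0531, and -0.06 in iae1). All its iae2 arrays lay below its B1798 arrays. AT2G47780 had -0.31 in iae1 (limma adjusted p = 0.12) and -0.04 in iae2, and its iae1 arrays (29.6 to 35.6) all lay below its B1798 arrays (38.5 to 49.1). AT3G05500 had -0.14 and -0.24, AT5G16550 -0.03 and 0.12, and the dim AT3G01570 -0.13 and 0.04 in iae1 and iae2, with overlapping arrays. OLEO3, an oleosin that coats oil bodies in seeds, was under the filter, at 19.1 to 22.5 in iae1, 13.8 to 20.7 in iae2 and 20.2 to 22.0 in B1798.

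**Figure D4:**
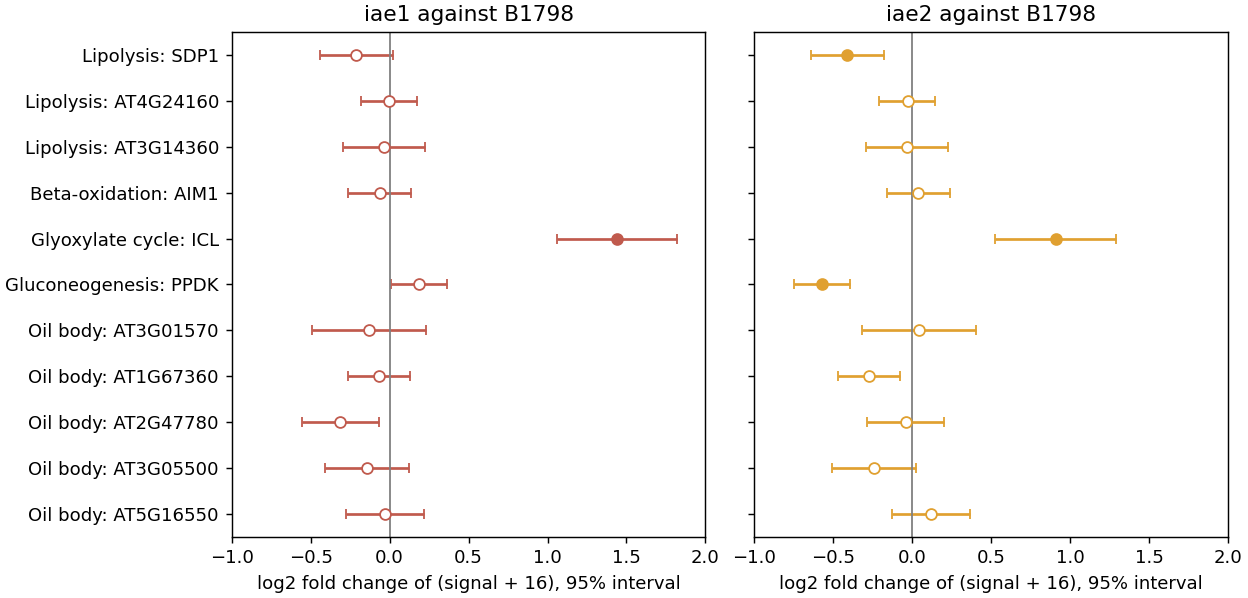
The log2 fold change of (signal + 16) with 95% limma intervals for the 11 tested oil use genes, by role, in iae1 and in iae2 against B1798, with filled points for adjusted p below 0.05. ICL stands to the right at 1.44 and 0.91, SDP1 and PPDK are filled to the left in iae2 at -0.41 and -0.57, and the other genes are open in both lines.

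Genes of the neighbouring lists had a probe set named here in few cases. HPR, the hydroxypyruvate reductase of leaf peroxisomes, whose transcript marks the turn to photorespiration in green tissue, had signals of 1863 ± 111 in iae1, 1741 ± 197 in iae2 and 1785 ± 135 in B1798. It was the tested 1 of 8 leaf peroxisome loci and did not pass in iae1 (0.06, limma adjusted p = 0.761) or iae2 (-0.04, limma adjusted p = 0.822). AT1G80950, the tested 1 of 8 loci listed for oil synthesis, had -0.14 in iae1 and -0.09 in iae2 (limma adjusted p = 0.463 and 0.599). APL3, a subunit of the starch synthesis enzyme ADP-glucose pyrophosphorylase known to be induced by sugar, was under the filter, at 11.0 to 16.6 in iae1, 16.6 to 23.8 in iae2 and 13.7 to 18.3 in B1798. Loci listed for seed storage proteins, seed regulators and peroxisome import had no probe set named here.

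The genes most like ICL across the 9 arrays were found by Pearson correlation of log2(signal + 16) with 7852 other tested probe sets of 1 gene. These arrays share their 3 line means, so the correlations describe these arrays and carry no test. AT1G11860 was nearest (r = 0.973), at 807 ± 59.4 in iae1, 692 ± 22.6 in iae2 and 553 ± 35.5 in B1798. SR, annotated as serine racemase, followed (r = 0.958), at 57.7 ± 2.04 in iae1, 54.5 ± 2.08 in iae2 and 46.9 ± 3.1 in B1798. AT3G13650 (r = 0.946), AT5G18500 (r = 0.942) and AT5G26260 (r = 0.935) completed the 5, with log2 fold changes in iae1 against B1798 of 0.50, 0.34 and 1.08. Those of ICL and AT5G26260 alone among the 6 were above 1 in iae1. An r of at least 0.9 with ICL was found for 22 of the 7852 probe sets.

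For SDP1 the nearest was AT1G18900 (r = 0.953), at 53.0 ± 5.51 in iae1, 44.4 ± 12.3 in iae2 and 61.6 ± 8.2 in B1798. AT3G51670 (r = 0.947), AT1G55280 (r = 0.936), AT1G75170 (r = 0.932, whose probe set may read more than one transcript) and AT1G19310 (r = 0.925) came next, with log2 fold changes in iae2 against B1798 of -0.20, -0.42, -0.30 and -0.28. At least 0.9 was reached by 13 of the 7852. ICL and SDP1 themselves correlated at r = -0.388 over the 9 arrays and at r = 0.422 after the line means were removed.

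**Figure D5:**
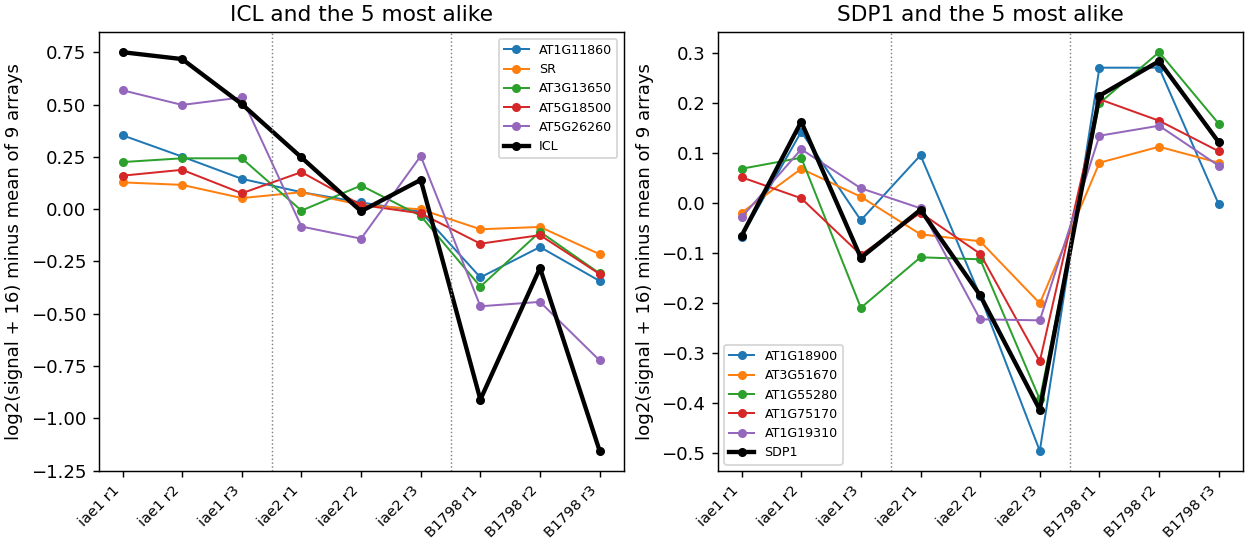
Profiles over the 9 arrays of ICL and of SDP1 (black) with the 5 most correlated genes of each, as log2(signal + 16) minus the gene's mean over all arrays, with dotted lines between the lines iae1, iae2 and B1798 and segments that only guide the eye. ICL spans more than its neighbours, from 69.0 to 6.7 in signal, and the SDP1 profile is lowest on iae2 replicate 3, at 85.8.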

How the data were processed

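RNA of 9 samples (3 lines, 3 arrays each) was measured on ATH1 arrays, a 1-colour platform of oligonucleotide probes, with cRNA made from oligo-dT primed cDNA and labelled with biotin, per the labels' protocols. The deposited values were linear intensity signals of 22810 probe sets, with a mean trimmed by 2% at each end of 100.01 on every array. How probes were summarised is not given in the sources used here, and the 64 control probe sets were left out. Lines were fitted in limma 3.58.1 (R 4.3.3) as a mean per line on log2(signal + 16), with an intensity trend and Benjamini-Hochberg adjustment over the 14404 probe sets at or above the 40th percentile of 3 or more arrays. The fit was tested on simulated data. The annotation names 13513 probe sets with 1 gene and lists no gene for 8730. Locus names come from a TAIR10.1 gene table. No coordinates or sequences are given. Named genes were the members, every tested oil use gene, called or leading members of the other lists, and the 5 most correlated genes. The members, lists and tests were chosen with earlier results of these data known. Alternatives changed the pseudocount, normalization, filter, variance model, weights, lines fitted, block and covariate, and left out each array. Array number limits the precision. Figures used Python 3.11.15 and matplotlib 3.10.9.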

Additional observations from a re-analysis of the deposited data

Results flagged for a closer look

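The iae lines differed from each other in the size or direction of their change against B1798 for 5 of the genes named, by the direct limma test of iae1 against iae2. In that test 19.6% of all tested probe sets were called, so nothing more is read from this count. ICL was higher in iae1 by a log2 fold change of 0.53 (limma adjusted p = 0.0494, 0.00504 to 0.29 over 22 alternatives), and PPDK by 0.76 (limma adjusted p = 9.56e-06, 2.39e-06 to 0.000192). The root marker PYK10 was higher in iae1 by 0.25 (limma adjusted p = 0.0385, 0.0202 to 0.596), and the antenna protein gene LHCB4.2 was lower by -0.85 (limma adjusted p = 5.39e-06, 6.13e-08 to 0.00025). AT5G26260, picked for its correlation with ICL over these arrays, was higher in iae1 by 0.52 (limma adjusted p = 0.00245, 0.000549 to 0.062) and was not called with the GAPDH covariate. Its call is not a separate result, because the pick followed the ICL values.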

How the results depend on the processing

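Over 22 alternatives, 0 of the 6 ICL and SDP1 differences changed direction. ICL stayed called in iae1 against B1798 in all 22 (log2 fold change 0.71 to 2.01), and in iae2 in 21 (0.40 to 1.36). SDP1 in iae2 stayed called in 19 (-0.59 to -0.30). SDP1 was not called in iae1 against B1798 (-0.29 to -0.16) or against iae2 (0.10 to 0.32) under any of them. With the GAPDH ratio as a covariate the iae2 calls were lost for ICL (0.84) and SDP1 (-0.59), and the total called fell to 393, against 2558 without it, and to 1102, against 2825, between the iae lines. The ratio was lower on every iae2 array than on any other array, so line and covariate are confounded in both comparisons. For ICL in iae2 against B1798 the SE rose from 0.179 to 0.386. ICL between iae1 and iae2 was no longer called with pseudocount 4 (0.65), equal array medians (0.54), quantile normalization (0.54), no filter (0.53), no intensity trend (0.53) or the GAPDH covariate (0.58). It stayed called in 9 of the 22, among them the fit of only the 2 lines compared (SE 0.113, limma adjusted p = 0.00504). Leaving out 1 array at a time gave 0.46 to 0.61 for that difference, the call being lost in 7 of 9 fits, and -0.51 to -0.31 for SDP1 in iae2, lost in 2. The cause was not tested. In iae1 against B1798 the total called was 1039, 650 without iae1 replicate 3 and 615 without B1798 replicate 2.

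Same-numbered arrays deviated from their line means with correlations of -0.147 to 0.141 over 9 pairs, against -0.16 to 0.128 for arrays of unlike number. No pairing by number was visible in these values, and the labels do not say whether a number marks a shared batch. Of the 9 arrays, 2 correlated best with their own number in both other lines. With the replicate block, ICL kept 1.44 in iae1 (limma adjusted p = 0.000273), 0.91 in iae2 (0.00277) and 0.53 between the iae lines (0.0482), and SDP1 -0.41 in iae2 (0.0106), -0.21 in iae1 (0.232) and 0.20 between the iae lines (0.181). It changed 0 of these 6 calls, and the totals called were 982, 2499 and 2745. Of the other named calls, AT5G17820 in iae1 (0.51, limma adjusted p = 0.0202) was lost in 6 of 22 alternatives, PYK10 in iae2 (-0.33, limma adjusted p = 0.00898) in 2 of 22 and PYK10 between the iae lines in 9 of 22. Of the genes correlated with ICL or SDP1, AT5G18500 in iae1 lost its call in 12 of 22 and AT1G75170 and AT1G19310 in iae2 in 10 and 9. These genes were picked for following ICL or SDP1 over the same arrays, so their calls are not separate results.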
